A study of Mus musculus with 12 samples.

Results

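Mouse MC38 cells carrying a guide RNA against Hcar1 (sgHcar1) were compared with and without lactate. Of the 12 RNA-seq libraries of the study, 6 belong to this comparison: 3 from sgHcar1 cells given 20 mM lactate for 24 hours and 3 from sgHcar1 cells given PBS, the buffer used as the control. The genes described are those with at least 1 FPKM (fragments per kilobase of gene scaled to the mapped total, a level corrected for gene length and sequencing depth) in at least 3 of these 6 libraries, which are 12186 of the 42329 entries of the authors' table. The remaining 6 libraries come from cells with a control guide, sgControl, under the same PBS and lactate conditions, and serve here for the difference between the guides. MC38 is a line derived from a colon adenocarcinoma, and both arms of the comparison carry the Hcar1 guide. The labels do not say whether the sgHcar1 line is a pool or 1 clone, which salt of lactate was used, or whether the 3 libraries of a group are separate cultures; p-values measure only the spread between these libraries. The columns of the table were matched to the labels by their letters, of which the one for the sgHcar1 cells follows by elimination.

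Lactate is the end product of fermentative glycolysis and leaves and enters cells with a proton through monocarboxylate transporters. It is oxidised back to pyruvate by lactate dehydrogenase, and outside the cell it binds HCAR1, a Gi-coupled receptor that lowers cyclic AMP. Cells under stress share a small set of transcription programs: heat shock factor drives cytosolic chaperones when proteins misfold, the unfolded protein response serves the endoplasmic reticulum (ER), ATF4 serves amino acid supply, and NRF2 serves redox balance.

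Levels of Hcar1 RNA could not serve as a check of the guide. Hcar1 was at 0.0196 FPKM in 1 PBS library and at 0 in the other 5 libraries, and Hcar2 was at 0 in all 6. With such values a test of Hcar1 or Hcar2 could not show a difference. The chemokine genes Ccl2 and Ccl7 had means under 0.1 FPKM in both groups (exact permutation test, two-sided, p = 1 for each). The smallest p that 3 against 3 libraries allow is 0.1. The summed FPKM was 362815 to 367977 in PBS and 411996 to 421984 in lactate, and 11758 to 11892 genes reached 1 FPKM in each library. Pearson correlations of log2(FPKM + 1) were 0.991 to 0.992 within PBS, 0.989 to 0.991 within lactate, and 0.894 to 0.899 between them. Of 10 leukocyte markers 9 have an entry and 4 of these (Adgre1, Cd3e, Cd8a, Itgam) were at 0 in all 6 libraries. The monocyte and macrophage markers Cd14 and Cd68 were tested: Cd14 was at 8.02, 7.04 and 7.95 FPKM with PBS and 5.02, 4.07 and 3.80 with lactate (-0.72 ± 0.079), and Cd68 was at 1.38, 2.23 and 1.73 FPKM with PBS and 5.30, 3.95 and 5.47 with lactate (1.09 ± 0.13, log2 scale). The line expressed little of the colon epithelial program that its label names: Cdh1, Cdx2, Epcam and Krt19 were at 0, while the keratin gene Krt18 was at 44.7, 48.4 and 45.4 FPKM with PBS and 110.2, 113 and 114 with lactate.

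Lactate shifted most of the measured transcriptome of sgHcar1 cells. At an adjusted p under 0.05 (limma on log2(FPKM + 1), Benjamini-Hochberg adjustment over all 12186 genes), 9544 genes were called, 78.3% of those tested; 4910 were higher in lactate (40.3%) and 4634 were lower (38.0%). Most of these changes were small: the middle 50% of log2 changes ran from -0.43 to 0.48, and 1209 genes were at least 2-fold higher (9.92%) and 836 at least 2-fold lower (6.86%). When every library was rescaled to the same summed FPKM, the 2-fold counts were 862 higher and 1132 lower, so that the larger side turned. With the deposited scaling 36 genes were at least 8-fold higher and 6 at least 8-fold lower. The share of calls that were higher was 51.4% with the deposited scaling and 40.5% after that rescaling, a step that moved the median log2 change by -0.156; for several lists with a median close to 0 both counts are given. The plot of mean levels shows the genes with large changes as single points far from the diagonal. The 3 lactate libraries did not overlap the 3 PBS libraries in 9625 of the 12186 tested genes (79.0%). A lack of overlap therefore does not set a gene apart here. In what follows, a change is a log2 difference, lactate minus PBS, of FPKM + 1, with its standard error (SE); pairs of levels are means ± SD over 3 libraries; and a gene is said to have risen or fallen only when its adjusted p was under 0.05.

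**Figure D1:**
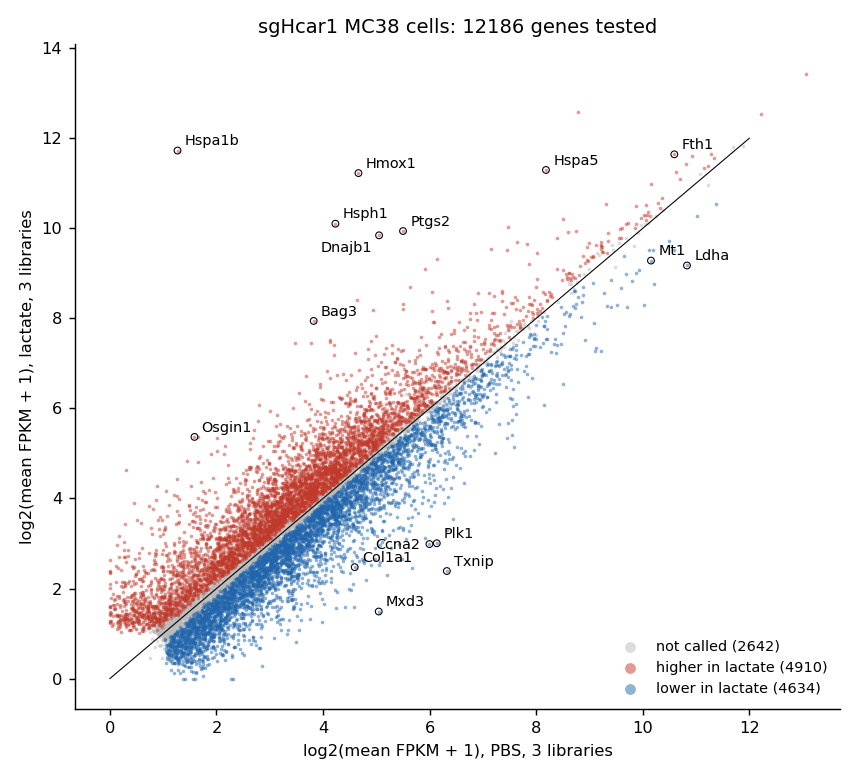
Mean level of each of the 12186 tested genes in PBS (horizontal) and in lactate (vertical), both as log2(mean FPKM + 1) over 3 sgHcar1 libraries; red points are called higher (4910), blue points lower (4634) and grey points not called (2642). Hspa1b lies near the left edge and the top, at means of 1.41 ± 0.145 FPKM with PBS and 3386 ± 607 FPKM with lactate (± SD), and Txnip and Mxd3 lie farthest below the diagonal among the labelled genes.

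The list of heat shock chaperones and their partners included the largest rise of any tested gene. Of 48 listed genes 41 have an entry and 37 were tested; 28 rose, 4 fell and 5 were not called, with a median change of 0.70 against 0.02 over all genes tested. Hspa1b, which encodes an inducible HSP70 that binds unfolded proteins, was that gene. Its level was 1.26, 1.42 and 1.55 FPKM with PBS and 3405, 2771 and 3984 with lactate. The lactate libraries lie 3 orders of magnitude above the PBS libraries, with no overlap, and the change was 10.44 ± 0.11 (adjusted p = 1.76e-13). Hspa1b has a nearly identical neighbour, Hspa1a, for which no entry was used here, so reads of the pair may have been split or dropped by the counting and the level of Hspa1b is uncertain.

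Promoter letters are shown for Hspa1b and Hsph1, chaperone genes with large rises, and for the pair Hspe1 and Hspd1, whose shared stretch holds a 3-unit match. They come from RefSeq windows of 250 bases before to 50 after the start (build GRCm38.p6). Capitals mark matches to the heat shock element, written with 2 units as GAANNTTC or TTCNNGAA and with 3 units as GAANNTTCNNGAA or TTCNNGAANNTTC, searched on both strands; every 3-unit match contains 2-unit matches. Positions are chr17:34959310-34959367, minus strand for Hspa1b, chr5:149636337-149636394, minus strand for Hsph1, and chr1:55088034-55088101 for the stretch between the divergent genes Hspe1 (plus strand, shown) and Hspd1 (minus strand).
Hspa1b: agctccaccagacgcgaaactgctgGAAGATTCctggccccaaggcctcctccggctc
Hsph1: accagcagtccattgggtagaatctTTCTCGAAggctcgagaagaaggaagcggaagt
Hspe1 and Hspd1: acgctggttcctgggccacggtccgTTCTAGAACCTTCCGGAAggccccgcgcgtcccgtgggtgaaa
The 2-unit letters stood in 13 of 32 windows of tested heat shock list genes (40.6%), against 1055 of 7836 windows of all tested genes (13.5%) and 15.1% of all 32851 windows. The 3-unit letters stood in 3 of the 32 (9.38%; Hsph1, Chordc1 and Dnajb6) and in 43 of the 7836 (0.549%). Among windows of all genes at least 2-fold higher, the 3-unit letters stood in 4 of 696 (0.575%) and the 2-unit letters in 111 (15.9%). Such a match is a description of these letters and not evidence of a bound factor.

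Partners of HSP70 rose with it. Hsph1, an HSP110 protein that exchanges the nucleotide of HSP70, was at 17.3, 17.5 and 18.6 FPKM with PBS and 1116, 972 and 1205 with lactate, a change of 5.87 ± 0.062 (adjusted p = 1.95e-13). Dnajb1, the J-domain protein that hands clients to HSP70, was at 31.9, 35.6 and 28.9 FPKM with PBS and 956, 783 and 1015 with lactate (4.79 ± 0.092, adjusted p = 4.09e-12). Neither gene had a lactate library within 10-fold of a PBS library. All 5 tested HSP70 family genes rose, among them Hspa4l from 12.6 ± 0.215 to 36.6 ± 2.23 FPKM (1.46 ± 0.043) and Hspa13 from 8.04 ± 0.200 to 29.0 ± 1.22 FPKM (1.73 ± 0.047). Of 8 J-domain genes 7 rose and 1 was not called; Dnajb4 went from 5.96 ± 0.393 to 66.4 ± 5.59 FPKM (3.27 ± 0.063) and Dnaja1 from 28.8 ± 0.254 to 90.8 ± 11.2 FPKM (1.61 ± 0.068).

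Nucleotide exchange factors were divided. Bag3, which links HSP70 to small heat shock proteins and selective autophagy, was at 12.7, 13.6 and 13.2 FPKM with PBS and 255, 205 and 274 with lactate, with the highest PBS library far below the lowest lactate library (4.11 ± 0.085, adjusted p = 6.36e-12). Bag5 and Bag2 also rose, by 0.59 and 0.58, while Hspbp1 fell from 24.6 ± 2.20 to 15.9 ± 1.31 FPKM (-0.60 ± 0.067) and Bag1 fell from 111 ± 1.62 to 100.2 ± 3.69 FPKM (-0.15 ± 0.031). The HSP90 group rose more moderately, with 6 of 8 genes higher, none lower and 2 not called. Hsp90ab1, the constitutive cytosolic HSP90 and one of the most abundant transcripts, went from 1135 ± 37.5 to 2034 ± 169 FPKM (0.84 ± 0.055). Its co-chaperones Ahsa2 and Chordc1 went from 3.94 ± 0.197 to 16.5 ± 0.518 FPKM (1.83 ± 0.049) and from 26.6 ± 1.03 to 81.6 ± 6.58 FPKM (1.58 ± 0.055).

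Small heat shock proteins, which hold unfolded proteins without ATP, were also divided. Hspb8 rose from 39.8 ± 0.911 to 131 ± 4.40 FPKM (1.69 ± 0.038) and Cryab rose from 4.07 ± 0.471 to 9.45 ± 1.07 FPKM (1.04 ± 0.079). Hspb6 fell from 9.59 ± 0.551 to 4.13 ± 0.424 FPKM (-1.05 ± 0.068). Among regulators, Hsf1 and Hsf2, heat shock factors that bind the element described above, rose by 0.41 and 0.70, and Hsf4 fell by 0.41. Genes for the handling of ubiquitin and aggregates included Zfand2a, an arsenite-inducible proteasome adaptor, at 17.6, 17.2 and 17.8 FPKM with PBS and 149, 129.8 and 152 with lactate (2.96 ± 0.054). The chaperonin TRiC folds actin and tubulin, and 6 of its 7 tested subunit genes rose and Tcp1 fell; all these changes were small, up to 0.58 for Cct4, and the counts were 5 and 2 when libraries were rescaled to the same sum. Mitochondrial chaperones rose in 9 of 10 genes, with none lower. Hspe1, the HSP10 co-chaperonin, was at 225, 227 and 224 FPKM with PBS and 795, 757 and 851 with lactate (1.82 ± 0.060, adjusted p = 1.89e-10). Its divergent neighbour Hspd1, the HSP60 chaperonin, was at 166, 161 and 159.9 FPKM with PBS and 360.4, 352 and 417 with lactate (1.20 ± 0.055). For both genes every lactate library was above every PBS library.

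**Figure D2:**
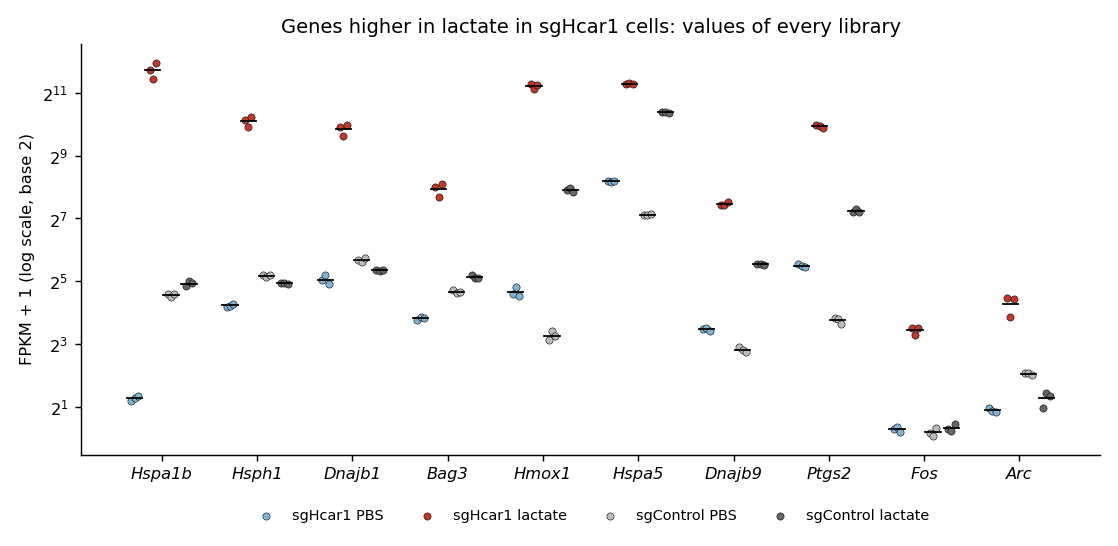
FPKM + 1 on a log2 axis for 10 genes higher in lactate. Each point is 1 library (3 per group) and the bar is the mean FPKM of the group plus 1, with sgHcar1 in colour and sgControl in grey. Hspa1b, Hsph1 and Dnajb1 are far higher in the sgHcar1 lactate libraries than in the other 3 groups, while Hmox1, Hspa5, Dnajb9 and Ptgs2 are higher in lactate with either guide.

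Genes of the unfolded protein response rose almost as a whole. Of 32 tested genes 30 rose, 1 fell and 1 was not called, with a median change of 1.64. Among 18 ER chaperones and folding enzymes 16 rose, and the abundant one was Hspa5, which encodes BiP, the HSP70 of the ER. Hspa5 was at 295, 285 and 289 FPKM with PBS and 2507, 2543 and 2483 with lactate, with tight groups that did not overlap (3.11 ± 0.026, adjusted p = 4.00e-14). Dnajb9, a J-domain partner of BiP that restrains the sensor IRE1, was at 10.2, 10.3 and 9.68 FPKM with PBS and 172, 171 and 183 with lactate (3.99 ± 0.045, adjusted p = 2.20e-13). Sdf2l1, another BiP cofactor, was at 12.3, 12.5 and 13.1 FPKM with PBS and 185, 159 and 176 with lactate (3.68 ± 0.081). P4hb, a protein disulfide isomerase, was the 1 member that fell, from 421 ± 10.1 to 389 ± 10.1 FPKM (-0.11 ± 0.031).

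Genes of ER-associated degradation, which moves misfolded proteins to the cytosol, rose in 7 of 7 tested cases. Syvn1, the ubiquitin ligase HRD1, went from 9.80 ± 0.684 to 34.0 ± 0.586 FPKM (1.70 ± 0.045). Its partner Sel1l went from 13 ± 0.413 to 44.2 ± 1.49 FPKM (1.69 ± 0.033) and Herpud1 went from 34.8 ± 0.589 to 82.5 ± 0.829 FPKM (1.22 ± 0.032). All 7 sensors and transcription factors rose as well. Ppp1r15a (GADD34), which removes the phosphate from eIF2-alpha, was at 23.3, 23.6 and 24.7 FPKM with PBS and 328, 325 and 359 with lactate (3.76 ± 0.042, adjusted p = 2.20e-13). Ddit3 (CHOP), a factor linked to death under prolonged ER stress, was at 67.1, 64.3 and 63.5 FPKM with PBS and 379, 368 and 399 with lactate (2.54 ± 0.064), and Xbp1, whose mRNA is spliced by IRE1, went from 16.5 ± 0.225 to 101 ± 2.46 FPKM (2.55 ± 0.050). In each of these 3 genes the groups were far apart. Atf4 itself rose little, from 495 ± 15.2 to 632 ± 7.58 FPKM (0.35 ± 0.030), and was not called after quantile normalization (adjusted p = 0.319).

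The ER stress response element, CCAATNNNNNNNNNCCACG, was rare in the promoter windows and is shown for 5 of the genes that hold it, with the element in capitals. It stood in 8 of 26 windows of tested unfolded protein response genes (30.8%) and in 13 of 7836 windows of tested genes (0.166%). Its share was 1.29% among genes at least 2-fold higher and 0.119% of all windows. In Creld2 and Calr the letters lie on the opposite strand and read in reverse complement. Positions are chr2:34772000-34772068, plus strand for Hspa5, chr15:88819495-88819563, plus strand for Creld2, chr19:6046507-6046575, plus strand for Syvn1, chr12:17266466-17266534, plus strand for Pdia6 and chr8:84847050-84847118, minus strand for Calr.
Hspa5: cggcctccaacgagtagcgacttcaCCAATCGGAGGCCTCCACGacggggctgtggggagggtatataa
Creld2: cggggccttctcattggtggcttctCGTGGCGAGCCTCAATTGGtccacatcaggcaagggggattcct
Syvn1: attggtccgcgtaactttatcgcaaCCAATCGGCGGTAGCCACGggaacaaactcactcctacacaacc
Pdia6: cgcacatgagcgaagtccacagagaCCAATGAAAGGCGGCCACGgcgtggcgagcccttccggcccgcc
Calr: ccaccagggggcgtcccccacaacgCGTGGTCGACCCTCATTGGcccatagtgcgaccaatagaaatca
Creld2, a disulfide isomerase of the ER, was at 47.0, 52.6 and 45.2 FPKM with PBS and 416, 396 and 436 with lactate (3.08 ± 0.066). Pdia6 and Calr, an isomerase and a lectin chaperone shown here for their sequences although the naming rule did not pick them, went from 80.5 ± 1.75 to 297 ± 5.40 FPKM (1.87 ± 0.027) and from 141 ± 3.47 to 746 ± 24.7 FPKM (2.40 ± 0.033).

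Targets of ATF4 rose in 33 of 43 tested genes, with 6 lower and 4 not called, but their median change of 0.88 was below that of the unfolded protein response. Cebpb, a transcription factor that pairs with ATF4, went from 66.9 ± 3.44 to 242 ± 16 FPKM (1.84 ± 0.058). Nupr1 went from 23.5 ± 1.44 to 84.4 ± 5.20 FPKM (1.80 ± 0.064). Trib3, a pseudokinase induced by CHOP, went from 103 ± 1.95 to 222 ± 2.25 FPKM (1.10 ± 0.079). The low-abundance hormone gene Fgf21 was at 0.138, 0.0700 and 0.0649 FPKM with PBS and 2.08, 1.91 and 2.52 with lactate (1.53 ± 0.10), above 1 FPKM in the lactate libraries only. Vldlr, a lipoprotein receptor gene, went against the list, from 43.2 ± 1.14 to 18.8 ± 0.663 FPKM (-1.16 ± 0.041), as did the mTORC1 inhibitor gene Ddit4, from 134 ± 7.60 to 75.8 ± 6.40 FPKM (-0.82 ± 0.065).

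Amino acid transporters rose in 8 of 9 tested cases and aminoacyl-tRNA synthetases in 11 of 12. Slc7a11, the cystine importer, went from 4.32 ± 0.406 to 16.8 ± 0.351 FPKM (1.75 ± 0.053). Its heavy chain Slc3a2 went from 119.7 ± 3.94 to 376 ± 4.0 FPKM (1.64 ± 0.033). Slc6a9, a glycine transporter, was at 11.5, 10.6 and 12.4 FPKM with PBS and 44.8, 41.9 and 41.7 with lactate (1.81 ± 0.051). Yars and Nars, synthetases for tyrosine and asparagine, went from 15.8 ± 1.01 to 49.2 ± 1.87 FPKM (1.58 ± 0.043) and from 231 ± 2.68 to 589.9 ± 14.8 FPKM (1.35 ± 0.027). The methionine synthetase Mars fell from 66.1 ± 2.29 to 53.2 ± 0.568 FPKM (-0.31 ± 0.030). Enzymes that make serine, glycine and one-carbon units were divided: Aldh1l2 rose from 28.2 ± 1.10 to 53.7 ± 1.5 FPKM (0.91 ± 0.055) and Mthfd2 rose from 80.3 ± 1.18 to 109.6 ± 5.86 FPKM (0.44 ± 0.042), but Psat1 fell from 248 ± 2.47 to 199 ± 1.22 FPKM (-0.31 ± 0.028). Shmt2 was at 218 ± 11.9 FPKM in PBS and 233 ± 5.39 FPKM in lactate (0.10 ± 0.045, adjusted p = 0.0703), although it was called without PBS replicate 3 (adjusted p = 0.0113). Asns, asparagine synthetase, rose from 192 ± 6.18 to 354 ± 3.90 FPKM (0.88 ± 0.034). Pck2, the mitochondrial enzyme that makes phosphoenolpyruvate, fell from 44.8 ± 1.27 to 34.4 ± 0.585 FPKM (-0.37 ± 0.029).

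Redox genes under NRF2 rose in 24 of 32 tested cases, with 6 lower, 2 not called and a median change of 0.72. Hmox1, heme oxygenase 1, which opens the heme ring and is also driven by NRF2, had the second-largest change of all tested genes. It was at 23.4, 27.4 and 22.3 FPKM with PBS and 2499, 2242 and 2439.8 with lactate (6.57 ± 0.083, adjusted p = 4.93e-13). Osgin1, an oxidative stress gene, was at 2.22, 2.01 and 1.78 FPKM with PBS and 43.2, 37.1 and 40.5 with lactate (3.78 ± 0.084, adjusted p = 1.08e-11). For both, the lowest lactate library was more than 10-fold above the highest PBS library. Nqo1, a quinone reductase and standard NRF2 target, was at 0.497, 0.461 and 0.583 FPKM with PBS and 6.6, 7.36 and 5.59 with lactate (2.31 ± 0.073). Srxn1, which repairs oxidised peroxiredoxins, was at 29.8, 31.1 and 31.3 FPKM with PBS and 203, 185 and 194 with lactate (2.62 ± 0.037).

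The genes for both subunits of the first enzyme of glutathione synthesis rose. Gclm, the modifier subunit, was at 41.8, 43.8 and 47.5 FPKM with PBS and 308, 285 and 284 with lactate (2.69 ± 0.058, adjusted p = 8.66e-12). Gclc, the catalytic subunit, went from 19.3 ± 0.946 to 73.4 ± 0.338 FPKM (1.87 ± 0.040). The peroxidase genes Gpx1 and Gpx4 fell, from 126 ± 2.45 to 64.3 ± 4.71 FPKM (-0.96 ± 0.057) and from 182 ± 8.44 to 116 ± 7.89 FPKM (-0.65 ± 0.061). Thioredoxin Txn1 fell too, from 425 ± 16 to 301 ± 19.8 FPKM (-0.50 ± 0.052); its list held 4 rises and 2 falls of 7, or 3 of each when libraries were rescaled to the same sum. Among regulators the small MAF genes Mafk and Maff went from 14.6 ± 0.626 to 72.5 ± 3.82 FPKM (2.24 ± 0.058) and from 38.4 ± 0.623 to 169 ± 5.71 FPKM (2.11 ± 0.039). Keap1, the ubiquitin ligase adaptor that holds NRF2 down, fell from 18.1 ± 0.860 to 10.3 ± 0.614 FPKM (-0.76 ± 0.046). Gclm is shown because its window holds TGACNNNGC, the antioxidant response element, in capitals on the opposite strand (chr3:122245398-122245456, plus strand).
Gclm: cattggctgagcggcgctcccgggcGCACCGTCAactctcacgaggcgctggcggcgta
The element stood in 11 of 27 windows of tested NRF2 list genes (40.7%) and in 1353 of 7836 of all tested genes (17.3%). Its share was 19.5% among genes at least 2-fold higher and 19.1% among genes at least 2-fold lower.

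Heme and iron genes followed different courses. Slc48a1, a heme transporter, was at 34.4, 34.7 and 33.3 FPKM with PBS and 157, 145 and 138 with lactate (2.07 ± 0.052). Blvrb, a biliverdin reductase, went from 63.6 ± 3.17 to 119.8 ± 10.2 FPKM (0.90 ± 0.064). The other reductase, Blvra, fell from 8.12 ± 0.535 to 6.40 ± 0.169 FPKM (-0.30 ± 0.059). Fth1, the heavy chain of ferritin and one of the most abundant transcripts, was at 1523, 1529 and 1574 FPKM with PBS and 3337, 3062 and 3186 with lactate (1.05 ± 0.044), so that each lactate library had about 2 times the level of each PBS library. Of 7 heme synthesis genes 5 fell and 2 rose, Cpox from 39.7 ± 0.852 to 106 ± 1.97 FPKM (1.39 ± 0.035) and Alas1 from 5.31 ± 0.461 to 6.63 ± 0.422 FPKM (0.28 ± 0.062), the latter not called when libraries were rescaled to the same sum (adjusted p = 0.115). The metallothioneins Mt1 and Mt2, small metal-binding proteins, fell: Mt1 was at 1209, 1180.0 and 1024 FPKM with PBS and 647, 615 and 604 with lactate (-0.87 ± 0.063) and Mt2 at 941, 885 and 857 FPKM with PBS and 463, 459 and 436 with lactate (-0.98 ± 0.049). Their transcription factor gene Mtf1 rose from 3.4 ± 0.173 to 7.57 ± 0.301 FPKM (0.96 ± 0.050).

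Routes of protein disposal were unequal. Autophagy genes rose in 16 of 19 tested cases and lysosome and V-ATPase genes in 22 of 26, each with 1 lower. Sqstm1 (p62), the receptor that carries ubiquitinated cargo to autophagosomes, was at 177, 179.9 and 174 FPKM with PBS and 1059, 1028 and 1028 with lactate (2.54 ± 0.033, adjusted p = 4.99e-13). Gabarapl1, a protein of the autophagosome membrane, was at 29.8, 28.5 and 27.6 FPKM with PBS and 178, 181 and 177 with lactate (2.60 ± 0.039). Gla, a lysosomal galactosidase, went from 6.37 ± 0.403 to 35 ± 4.56 FPKM (2.28 ± 0.084). Tfeb, the main transcription factor gene of lysosome supply, fell from 2.96 ± 0.0977 to 2.38 ± 0.232 FPKM (-0.23 ± 0.070). Proteasome genes changed little: 17 rose and 14 fell of 32, and these counts turned to 9 and 15 when libraries were rescaled to the same sum and to 10 and 15 after quantile normalization. Psmc2, an ATPase subunit, went from 27.1 ± 0.982 to 60.8 ± 1.63 FPKM (1.14 ± 0.032) and Psmd13 went from 31.3 ± 0.753 to 17.8 ± 0.700 FPKM (-0.78 ± 0.036).

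**Figure D3:**
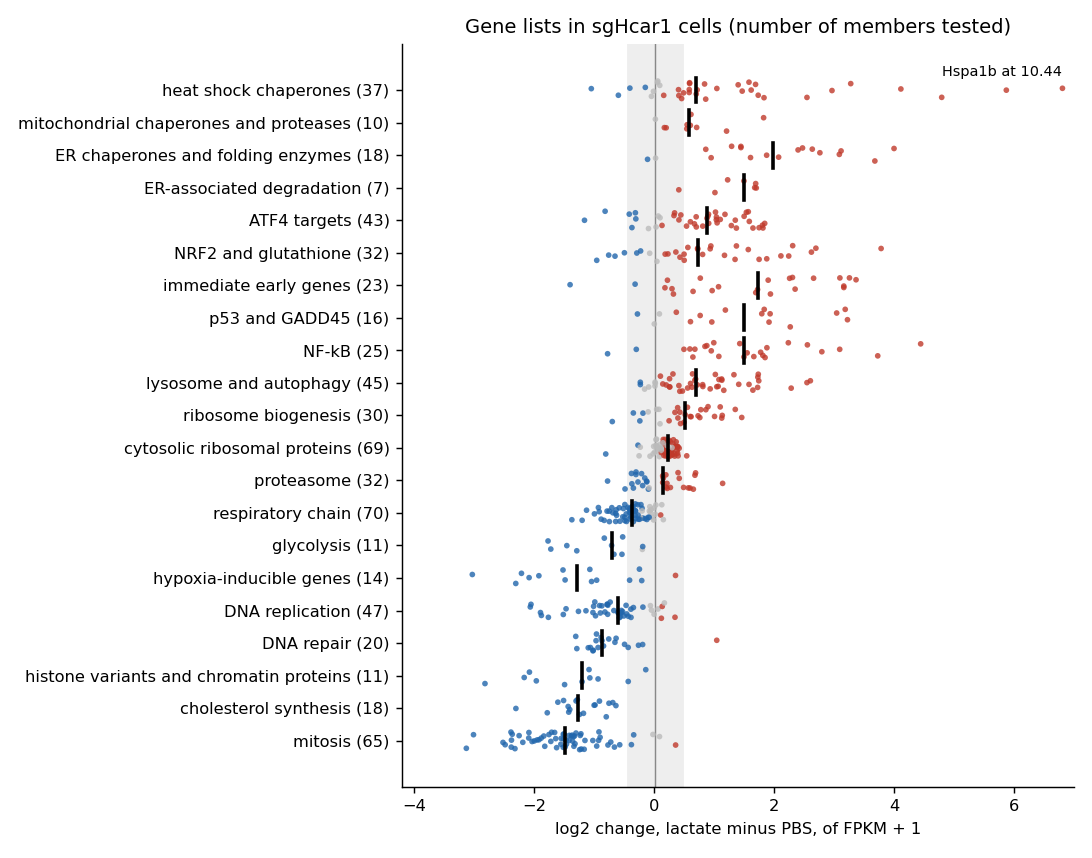
Log2 change, lactate minus PBS, of FPKM + 1 for each tested member of 21 gene lists in sgHcar1 cells; red is higher, blue lower and grey not called, the black bar is the median of the list, and the grey band holds the middle 50% of all tested genes. The ER and immediate early lists lie to the right and the mitosis, cholesterol and chromatin lists to the left; the proteasome and ribosomal protein medians are close to 0, and those counts depend on the scaling. Hspa1b is drawn at the right edge.

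Immediate early genes, which switch on within minutes of a signal and code mostly for transcription factors, were higher after 24 hours in 21 of 23 tested cases, with 2 lower and a median change of 1.72. All 7 AP-1 genes rose. Fos was at 0.219, 0.277 and 0.154 FPKM with PBS and 10.3, 8.85 and 10.4 with lactate (3.16 ± 0.096, adjusted p = 1.02e-10), moving from under 0.5 FPKM to about 10. Fosb was at 2.42, 1.79 and 2.24 FPKM with PBS and 28.7, 24 and 28.5 with lactate (3.16 ± 0.11). Jun was at 42.4, 40.9 and 41.7 FPKM with PBS and 163, 145 and 166 with lactate (1.90 ± 0.057). No lactate library of these 3 genes overlapped a PBS library, as held for 79.0% of all tested genes.

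Egr1, a zinc finger factor induced by ERK signalling, was at 28.7, 30.2 and 29.8 FPKM with PBS and 301, 276 and 294 with lactate (3.25 ± 0.061, adjusted p = 3.88e-12). Egr2 went from 0.832 ± 0.139 to 14.6 ± 1.02 FPKM (3.09 ± 0.084). Arc, known as a synaptic immediate early gene, was at 0.947, 0.809 and 0.790 FPKM with PBS and 20.9, 13.4 and 20.6 with lactate (3.36 ± 0.16, adjusted p = 4.08e-09); lactate replicate 2 lay below the other lactate libraries and still far above PBS. Btg2 and Ier5 went from 2.29 ± 0.113 to 19.7 ± 0.266 FPKM (2.65 ± 0.066) and from 12.4 ± 1.24 to 67.0 ± 1.27 FPKM (2.35 ± 0.056). The exceptions were Klf2, from 2.58 ± 0.0703 to 0.354 ± 0.0766 FPKM (-1.40 ± 0.043), and Nr4a2, from 5.20 ± 0.523 to 3.96 ± 0.174 FPKM (-0.32 ± 0.074).

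The list of ERK feedback and dual-specificity phosphatase genes rose in 11 of 18 tested cases, with 4 lower and 3 not called. The phosphatase genes led, with 7 of 9 higher: Dusp1 went from 5.16 ± 0.545 to 25 ± 1.04 FPKM (2.08 ± 0.078), Dusp16 from 5.19 ± 0.140 to 24 ± 0.420 FPKM (2.01 ± 0.054) and Dusp8 from 3.02 ± 0.319 to 13.1 ± 1.30 FPKM (1.81 ± 0.072). Dusp6, which acts on ERK itself, fell from 63.4 ± 1.69 to 38.0 ± 1.65 FPKM (-0.73 ± 0.048). The remaining role, with Sprouty, Spred and Etv genes, was divided: of 9 tested 4 rose, 3 fell and 2 were not called, with a median of 0.03. In that role Phlda1 was at 15.9, 16.2 and 17.5 FPKM with PBS and 193, 169.9 and 169 with lactate (3.35 ± 0.067, adjusted p = 5.39e-12). The ETS factor gene Etv4 fell from 56.8 ± 1.40 to 30.8 ± 0.456 FPKM (-0.86 ± 0.038). Ligands of the EGF receptor family rose in 3 of 5 tested cases. Areg, amphiregulin, was at 1.38, 1.45 and 1.34 FPKM with PBS and 21.4, 20.2 and 20.4 with lactate (3.18 ± 0.12, adjusted p = 6.22e-10), Ereg went from 13.3 ± 0.809 to 57.9 ± 3.01 FPKM (2.04 ± 0.066) and Nrg1 from 5.29 ± 0.184 to 24.8 ± 0.322 FPKM (2.04 ± 0.067); Tgfa fell from 1.32 ± 0.0456 to 0.857 ± 0.114 FPKM (-0.32 ± 0.074).

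Areg is shown for the cyclic AMP element TGACGTCA, in capitals (chr5:91139513-91139570, plus strand). That element stood in 41 of 696 windows of genes at least 2-fold higher (5.89%) and in 312 of 7836 of all tested genes (3.98%).
Areg: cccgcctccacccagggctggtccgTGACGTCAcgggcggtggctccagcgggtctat
Genes of the cyclic AMP route, on which HCAR1 acts, were divided. Of 9 tested receptors and effectors 3 rose and 5 fell (3 and 6 when libraries were rescaled to the same sum). All 5 tested genes of the group listed as targets rose by 0.25 to 0.81, but that group also holds coactivators of CREB. Creb1, the factor that binds the element, rose from 5.24 ± 0.0755 to 8.97 ± 0.229 FPKM (0.68 ± 0.039). Prkaca, the catalytic subunit of protein kinase A, fell from 33.6 ± 0.613 to 20.4 ± 0.948 FPKM (-0.69 ± 0.040). The Gi subunit gene Gnai2 fell from 122 ± 2.79 to 72.2 ± 3.09 FPKM (-0.75 ± 0.033) while Gnai3 rose from 76.9 ± 1.81 to 111 ± 1.61 FPKM (0.52 ± 0.030). Sik1, a kinase gene induced by CREB, went from 2.49 ± 0.208 to 5.11 ± 0.565 FPKM (0.81 ± 0.078).

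Targets of YAP, a coactivator that responds to cell shape and contact, went apart rather than together: 2 of 9 rose, 3 fell and 4 were not called, or 2 and 7 when libraries were rescaled to the same sum. Cyr61 was at 67.7, 70.7 and 70.9 FPKM with PBS and 672, 662 and 565 with lactate (3.16 ± 0.073, adjusted p = 1.39e-11), whereas its relative Ctgf, also a secreted matrix protein, was at 5.08, 4.98 and 5.30 FPKM with PBS and 0.902, 0.769 and 0.739 with lactate (-1.76 ± 0.069, adjusted p = 7.89e-10). Both genes had groups that did not overlap, in opposite directions.

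The p53 and GADD45 list rose in 13 of 16 tested cases, with Sesn1 lower and a median change of 1.49. Sesn1 went from 3.67 ± 0.0314 to 2.88 ± 0.632 FPKM (-0.28 ± 0.096), a call lost without lactate replicate 2 (adjusted p = 0.0775) or 3 (adjusted p = 0.0519). That call was also lost in the limma fit on the 6 sgHcar1 libraries alone (adjusted p = 0.0605). Gadd45a, a stress sensor that slows the cell cycle, was at 16.4, 18.0 and 17.6 FPKM with PBS and 163, 168 and 178 with lactate (3.22 ± 0.053, adjusted p = 1.90e-12). Plk2 and Plk3, polo kinases of the stress type, went from 59.6 ± 2.26 to 549.6 ± 47.5 FPKM (3.18 ± 0.061) and from 11.9 ± 1.33 to 105 ± 7.15 FPKM (3.04 ± 0.068). Bbc3 (PUMA), a BH3-only death gene, was at 6.82, 7.51 and 6.82 FPKM with PBS and 39.5, 40.1 and 33.8 with lactate (2.27 ± 0.071). Cdkn1a (p21), the CDK inhibitor under p53, rose less, from 113 ± 0.185 to 214 ± 6.91 FPKM (0.92 ± 0.035). Within the BCL2 family the survival gene Bcl2l1 fell from 34.5 ± 0.825 to 20.8 ± 1.29 FPKM (-0.70 ± 0.040) and Bok, an effector, fell from 26.9 ± 0.739 to 3.59 ± 0.354 FPKM (-2.61 ± 0.054). Mcl1 rose slightly, from 75.5 ± 0.989 to 82.1 ± 0.154 FPKM (0.12 ± 0.025). That call was lost when libraries were rescaled to the same sum (-0.065, adjusted p = 0.0636) and after quantile normalization (-0.029, adjusted p = 0.411).

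NF-kB components and inflammatory targets rose in 23 of 25 tested cases, with a median change of 1.49. Ptgs2, cyclooxygenase 2, which starts prostaglandin synthesis, was at 45.7, 44.0 and 43.1 FPKM with PBS and 1007, 989.8 and 944 with lactate (4.44 ± 0.050, adjusted p = 2.20e-13). Cxcl1, a neutrophil-attracting chemokine, was at 2.13, 2.01 and 2.29 FPKM with PBS and 40.1, 42.5 and 38.9 with lactate (3.72 ± 0.065, adjusted p = 2.47e-12). Lcn2, which binds bacterial siderophores, was at 0.736, 0.496 and 0.760 FPKM with PBS and 13.5, 15.8 and 10.6 with lactate (3.09 ± 0.11). Each of these 3 genes was more than 10-fold higher in mean FPKM. The NF-kB subunit Relb went from 8.06 ± 0.331 to 41.6 ± 0.953 FPKM (2.23 ± 0.039), the inhibitor Nfkbib from 10.7 ± 0.171 to 79.9 ± 0.535 FPKM (2.79 ± 0.035), and complement C3 from 1.09 ± 0.151 to 11.3 ± 0.631 FPKM (2.55 ± 0.057); Tnfaip3 (A20), a brake on the pathway, fell from 8.93 ± 0.249 to 4.80 ± 0.353 FPKM (-0.78 ± 0.068). Vcam1 fell from 9.48 ± 0.273 to 7.52 ± 0.203 FPKM (-0.30 ± 0.051). Beside Ptgs2, the prostaglandin list had Pla2g4a, which frees arachidonic acid, rising from 7.53 ± 0.533 to 32.4 ± 1.0 FPKM (1.97 ± 0.046). The exporter gene Abcc4 rose from 5.10 ± 0.201 to 24.2 ± 0.974 FPKM (2.05 ± 0.060), but Ptges, the prostaglandin E synthase, fell from 36.7 ± 0.621 to 30.5 ± 0.717 FPKM (-0.26 ± 0.036).

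Interferon-stimulated genes rose in 24 of 33 tested cases, 3 fell and 6 were not called, with a median of 0.39. Ifih1 (MDA5), a sensor of double-stranded RNA, went from 4.29 ± 0.239 to 17.7 ± 0.433 FPKM (1.82 ± 0.050) and Rsad2 (viperin) from 2.61 ± 0.121 to 11.8 ± 1.60 FPKM (1.82 ± 0.12). Irf1 fell from 9.50 ± 0.469 to 3.71 ± 0.203 FPKM (-1.16 ± 0.052). Isg15 was at 146 ± 5.86 FPKM in PBS and 152 ± 3.88 FPKM in lactate (0.060 ± 0.11, adjusted p = 0.648). Checkpoint ligands rose in 5 of 6 tested cases: Pvr went from 26.1 ± 1.38 to 76.0 ± 2.09 FPKM (1.51 ± 0.044) and Cd274 (PD-L1) from 1.77 ± 0.0987 to 4.14 ± 0.266 FPKM (0.89 ± 0.083). Cd276 fell from 10.03 ± 0.511 to 8.66 ± 0.585 FPKM (-0.19 ± 0.066), a call lost without PBS replicate 3 (adjusted p = 0.0795) or lactate replicate 2 (0.0797). B2m, the light chain of MHC class I, rose from 591 ± 10.1 to 825 ± 33.3 FPKM (0.48 ± 0.039).

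Mitosis genes fell almost without exception. Of 65 tested genes 62 fell, 1 rose and 2 were not called, with a median change of -1.48, and 52 fell at least 2-fold. All 18 cyclins, kinases and checkpoint genes fell. Plk1, the polo kinase that starts mitosis, was at 69.4, 65.3 and 73.0 FPKM with PBS and 6.36, 7.20 and 7.52 with lactate (-3.13 ± 0.069, adjusted p = 1.02e-11). Ccna2, cyclin A2, was at 62.9, 62.5 and 63.0 FPKM with PBS and 6.49, 7.46 and 6.83 with lactate (-3.01 ± 0.039, adjusted p = 4.99e-13). Mean levels in PBS were 9.85 and 9.07 times those in lactate. Bulk RNA does not tell fewer cells in mitosis from less of these RNAs per cell.

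Other parts of the division machinery fell with them. All 10 kinesins fell at least 2-fold, among them Kif20a from 76.1 ± 0.497 to 13.8 ± 0.793 FPKM (-2.38 ± 0.043), Kif11 from 49.3 ± 1.5 to 9.56 ± 0.212 FPKM (-2.25 ± 0.033) and Kif22 from 30.3 ± 0.830 to 5.28 ± 0.298 FPKM (-2.32 ± 0.043). All 14 centromere and kinetochore genes fell: Cenpf went from 32.1 ± 0.482 to 4.79 ± 0.572 FPKM (-2.52 ± 0.060) and Birc5 (survivin) from 49.8 ± 0.584 to 11 ± 0.720 FPKM (-2.09 ± 0.050). The 7 condensin genes fell less, by 0.34 to 1.84. Aurkb and Espl1, a kinase and the protease that separates sister chromatids, went from 62.6 ± 1.45 to 11.2 ± 0.701 FPKM (-2.38 ± 0.039) and from 29.0 ± 1.90 to 4.74 ± 0.248 FPKM (-2.39 ± 0.053). Of the transcription factors E2f8 was at 20.9, 20.6 and 22.6 FPKM with PBS and 3.07, 3.05 and 2.87 with lactate (-2.48 ± 0.064). Mybl2 went from 19.6 ± 0.930 to 6.72 ± 0.885 FPKM (-1.42 ± 0.071). Lin54, a subunit of the complex that binds the cell cycle homology element, was the 1 gene that rose, from 9.76 ± 0.576 to 12.8 ± 0.578 FPKM (0.36 ± 0.050).

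That element, TTTGAA, stood in 39 of 55 windows of tested mitosis genes (70.9%), against 1086 of 7836 of all tested genes (13.9%). Its share was 22.7% among genes at least 2-fold lower. The CCAAT box stood in 40 of the 55 (72.7%) and in 3390 of the 7836 (43.3%). The windows of 4 genes are shown for a match within 30 bases before the start, in capitals; in Kif11, Kif22 and E2f8 it lies on the opposite strand. Positions are chr15:102296241-102296292, plus strand for Espl1, chr19:37376338-37376381, plus strand for Kif11, chr7:127042421-127042462, minus strand for Kif22, and chr7:48881597-48881641, minus strand for E2f8.
Espl1: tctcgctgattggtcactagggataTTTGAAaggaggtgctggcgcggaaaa
Kif11: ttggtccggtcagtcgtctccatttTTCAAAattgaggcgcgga
Kif22: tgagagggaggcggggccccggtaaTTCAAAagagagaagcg
E2f8: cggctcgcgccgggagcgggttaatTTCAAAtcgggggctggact

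**Figure D4:**
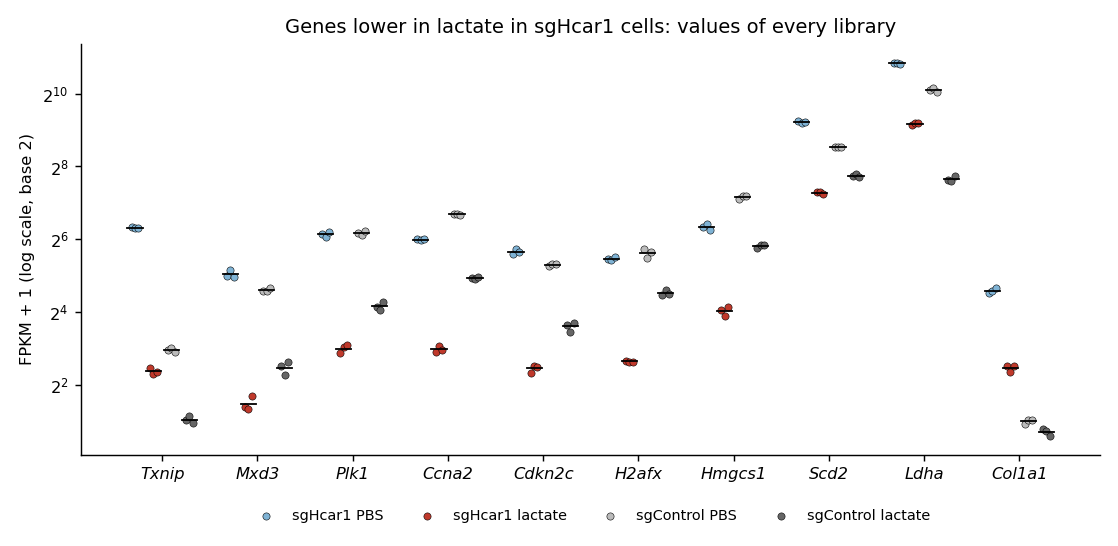
FPKM + 1 on a log2 axis for 10 genes lower in lactate. Each point is 1 library (3 per group) and the bar is the mean FPKM of the group plus 1, with sgHcar1 in colour and sgControl in grey. In sgHcar1 cells the red lactate points lie below the blue PBS points for all 10 genes.

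DNA replication genes fell in 39 of 47 tested cases, with 3 higher and a median change of -0.61. Among 17 helicase and origin genes 16 fell, and the example of the MCM helicase was Mcm7, from 95.3 ± 1.21 to 33.8 ± 1.14 FPKM (-1.47 ± 0.040); the licensing inhibitor Gmnn went from 43.5 ± 1.06 to 14.6 ± 0.325 FPKM (-1.52 ± 0.040). Among nucleotide supply genes Tk1, thymidine kinase, fell from 36.8 ± 0.979 to 8.10 ± 0.313 FPKM (-2.05 ± 0.034). Rrm2, the small subunit of ribonucleotide reductase, fell from 77.8 ± 2.06 to 20.4 ± 1.64 FPKM (-1.88 ± 0.052). The G1/S cyclins Ccne1 and Ccne2 fell from 25.4 ± 1.33 to 5.31 ± 0.323 FPKM (-2.07 ± 0.072) and from 16.8 ± 0.776 to 4.25 ± 0.398 FPKM (-1.76 ± 0.082), and Top2a, topoisomerase II, fell from 94.3 ± 1.11 to 24.6 ± 0.762 FPKM (-1.90 ± 0.034). Pold2 rose against the list, from 33.7 ± 0.641 to 43.2 ± 3.0 FPKM (0.35 ± 0.043). The other rises were Pola1 at 0.12 ± 0.044 and Dut at 0.13 ± 0.046. When libraries were rescaled to the same sum they became -0.055 and -0.049, neither of them called (adjusted p = 0.292 and 0.326). Pola1 was also not called without PBS replicate 1 (adjusted p = 0.104), lactate replicate 2 (0.114) or lactate replicate 3 (0.0550). Nor was Pola1 called in the limma fit on the 6 sgHcar1 libraries alone (adjusted p = 0.0773). Dut was not called without PBS replicate 2 (adjusted p = 0.0830), PBS replicate 3 (0.0767) or lactate replicate 3 (0.0815).

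Of 20 DNA repair genes 19 fell, among them Exo1 from 3.59 ± 0.183 to 0.856 ± 0.106 FPKM (-1.31 ± 0.053). Chek1, the checkpoint kinase of stalled forks, went the other way, at 5.61, 5.52 and 5.65 FPKM with PBS and 12.3, 10.9 and 14.7 with lactate (1.04 ± 0.093, adjusted p = 9.54e-07). All 11 tested histone variants and chromatin proteins fell. H2afx, the histone variant that marks DNA breaks when phosphorylated, was at 43.2, 42.3 and 44.7 FPKM with PBS and 5.39, 5.23 and 5.24 with lactate (-2.82 ± 0.056, adjusted p = 4.83e-12). The linker histone gene H1f0 was at 359.6, 369 and 355 FPKM with PBS and 90.4, 99.4 and 86.1 with lactate (-1.96 ± 0.054), and Lmnb1, lamin B1, went from 66.9 ± 2.01 to 14.1 ± 0.239 FPKM (-2.17 ± 0.034).

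Several regulators of G1 fell with the genes of division. Of 10 tested genes of the D cyclin and CDK inhibitor list 7 fell and 3 rose, Cdkn1a among the rises. Cdkn2c (p18), an inhibitor of CDK4 and CDK6, was at 47.1, 52.0 and 49.7 FPKM with PBS and 4.08, 4.81 and 4.64 with lactate (-3.20 ± 0.068, adjusted p = 7.72e-12). Cdkn2d (p19) was at 85.2, 88.8 and 82.1 FPKM with PBS and 10.5, 11.7 and 9.86 with lactate (-2.89 ± 0.070). Ccnd1, cyclin D1, went from 176 ± 4.03 to 50.1 ± 3.10 FPKM (-1.79 ± 0.042), and Cdkn1b (p27) from 17.0 ± 0.246 to 6.52 ± 0.936 FPKM (-1.26 ± 0.070). Mxd3, a repressor that competes with MYC for MAX, had the second-largest fall of all, at 31.0, 34.7 and 30.3 FPKM with PBS and 1.65, 1.53 and 2.24 with lactate (-3.56 ± 0.10, adjusted p = 7.06e-11). Its relative Mxd1 rose from 1.10 ± 0.133 to 5.15 ± 0.538 FPKM (1.54 ± 0.084). Mxi1 fell from 23.6 ± 0.706 to 10.4 ± 0.615 FPKM (-1.11 ± 0.060). Mxd3 and Mxi1 were the only 2 falls of the MYC-MAX-MXD list, in which 7 of 10 tested genes rose (median change 0.52).

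Glycolysis genes and genes of its regulators were mostly lower in the presence of added lactate. Of 11 tested glycolysis genes 10 fell and 1 was not called, with a median change of -0.71; several core enzymes of the list have no entry used here. Pfkl, the liver-type phosphofructokinase, was at 111, 114 and 116 FPKM with PBS and 32.7, 31.2 and 33.9 with lactate (-1.77 ± 0.037, adjusted p = 6.89e-12). Tpi1, triosephosphate isomerase, was at 1036, 1076 and 1008 FPKM with PBS and 310.5, 306 and 325 with lactate (-1.72 ± 0.039). Pkm, pyruvate kinase, went from 2652 ± 10.1 to 1489 ± 53.1 FPKM (-0.83 ± 0.039), and Hk1 from 32.6 ± 0.332 to 11.3 ± 0.625 FPKM (-1.46 ± 0.039). Txnip, which blocks glucose uptake and rises with glucose, had the largest fall of all tested genes, at 79.6, 78.5 and 79.1 FPKM with PBS and 4.59, 3.96 and 4.16 with lactate (-3.94 ± 0.054, adjusted p = 6.83e-13). Its relative Arrdc3 fell from 21.3 ± 0.486 to 8.09 ± 0.454 FPKM (-1.29 ± 0.064).

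Genes for the handling of lactate itself changed, both for the enzyme and for the exporter. Ldha, which converts pyruvate to lactate, was at 1821, 1841 and 1791 FPKM with PBS and 561, 589 and 579.5 with lactate (-1.66 ± 0.040, adjusted p = 1.81e-11). Slc16a3 (MCT4), the exporter of glycolytic cells, was at 45.9, 46.2 and 45.6 FPKM with PBS and 7.59, 7.58 and 7.53 with lactate (-2.45 ± 0.041, adjusted p = 2.02e-12). Bsg, the chaperone of these transporters, was at 696, 675 and 659 FPKM with PBS and 301, 299.5 and 313 with lactate (-1.15 ± 0.037). Slc16a1 (MCT1), which carries lactate in both directions, was at 55.4, 53.4 and 51.1 FPKM with PBS and 75.6, 75.5 and 74.2 with lactate (0.49 ± 0.031, adjusted p = 4.53e-08). The 3 falls and the 1 rise each left the groups apart. Pdk1, the kinase that shuts pyruvate dehydrogenase, fell from 38.5 ± 1.98 to 8.90 ± 0.394 FPKM (-1.996 ± 0.050). Genes of the pyruvate dehydrogenase complex and carriers counted 7 higher and 2 lower of 12, and 3 and 5 when libraries were rescaled to the same sum; Pcx, pyruvate carboxylase, rose from 7.82 ± 0.696 to 14 ± 0.485 FPKM (0.77 ± 0.078).

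Hypoxia-inducible genes fell in 13 of 14 tested cases, with a median change of -1.28. Apln, apelin, was at 80.2, 79.0 and 77.7 FPKM with PBS and 8.94, 9.0 and 8.42 with lactate (-3.03 ± 0.063, adjusted p = 6.96e-12). Egln1, the oxygen-sensing hydroxylase that is itself a HIF target, was at 98.1, 104 and 96.4 FPKM with PBS and 18.7, 19.6 and 19.7 with lactate (-2.31 ± 0.050). Bnip3, a mitophagy receptor, was at 164, 214 and 143 FPKM with PBS and 43.4, 37.6 and 38.0 with lactate (-2.08 ± 0.16). Higd1a went from 148 ± 15 to 31.0 ± 0.634 FPKM (-2.21 ± 0.060). Ndrg1 was the 1 rise, from 74.3 ± 1.69 to 95.3 ± 2.66 FPKM (0.35 ± 0.045). Of carbonic anhydrases, which interconvert carbon dioxide and bicarbonate, Car6 was at 16.9, 17.0 and 15.5 FPKM with PBS and 175, 186 and 189.6 with lactate (3.402 ± 0.056, adjusted p = 1.90e-12), Car13 rose from 6.09 ± 0.537 to 13.2 ± 0.979 FPKM (1.002 ± 0.059) and the mitochondrial Car5b fell from 14.5 ± 0.309 to 6.67 ± 0.273 FPKM (-1.01 ± 0.046).

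Respiratory chain genes encoded in the nucleus fell in 56 of 70 tested cases, with 1 higher, 13 not called and a median of -0.37, so most changes were well under 2-fold. All 15 ATP synthase genes fell, led by Atp5k from 81.1 ± 4.91 to 30.7 ± 2.85 FPKM (-1.37 ± 0.084); complex I was led by Ndufv3 from 42.6 ± 2.19 to 17.9 ± 0.259 FPKM (-1.20 ± 0.038) and complex III by Uqcr11 from 138 ± 7.82 to 62.5 ± 5.76 FPKM (-1.13 ± 0.11). Cox4i1, a subunit of cytochrome oxidase, was the 1 rise, from 256 ± 3.11 to 276 ± 4.73 FPKM (0.11 ± 0.037), and turned to -0.079 when libraries were rescaled to the same sum. That rise was not called without PBS replicate 2 (adjusted p = 0.0585), lactate replicate 2 (0.0529) or lactate replicate 3 (0.0583). In the citric acid cycle 11 of 17 genes fell and 5 rose, or 12 and 0 after that rescaling; Idh2 went from 43.4 ± 1.84 to 23.8 ± 0.607 FPKM (-0.84 ± 0.036) and Fh1 from 24.5 ± 1.55 to 15 ± 0.936 FPKM (-0.67 ± 0.054).

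Cholesterol synthesis genes fell in all 18 tested cases, with a median change of -1.26. Hmgcs1, the synthase before the rate-limiting reductase, was at 80.0, 84.6 and 75.4 FPKM with PBS and 15.7, 13.9 and 16.5 with lactate (-2.31 ± 0.059, adjusted p = 2.73e-11). Sqle, squalene epoxidase, went from 49.1 ± 0.890 to 13.6 ± 0.612 FPKM (-1.78 ± 0.038), Nsdhl from 37.3 ± 1.94 to 11.6 ± 0.678 FPKM (-1.61 ± 0.046) and Mvk from 17.0 ± 0.821 to 5.33 ± 0.256 FPKM (-1.51 ± 0.051). Insig1, which retains SREBP in the ER and is itself a target of SREBP2, fell from 51.4 ± 2.77 to 21.8 ± 1.70 FPKM (-1.20 ± 0.058). In that gene the highest lactate library was under the lowest PBS library. Fatty acid synthesis genes fell in 10 of 12 tested cases. Scd2, a desaturase and one of the abundant transcripts, was at 601, 584 and 598 FPKM with PBS and 157, 156 and 150.3 with lactate (-1.94 ± 0.028, adjusted p = 8.26e-13), Fasn went from 47.0 ± 3.12 to 10.9 ± 0.955 FPKM (-2.02 ± 0.064) and Elovl6 from 22.6 ± 0.832 to 3.31 ± 0.0815 FPKM (-2.45 ± 0.059).

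The window of Hmgcs1 is shown because, of 20 windows of tested cholesterol genes, it is the 1 that holds TCACNCCAC, a sterol element, in capitals (chr13:119690189-119690247, plus strand). The same letters stood in 106 of 7836 windows of tested genes (1.35%).
Hmgcs1: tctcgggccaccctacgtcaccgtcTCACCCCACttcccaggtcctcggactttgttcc

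Ribosome biogenesis genes mostly rose and ribosomal protein genes hardly moved. Of 30 ribosome biogenesis genes 22 rose and 4 fell, with a median change of 0.51; Wdr43 went from 44.5 ± 1.18 to 124 ± 4.25 FPKM (1.46 ± 0.033), Gnl3 (nucleostemin) from 45.1 ± 1.13 to 117 ± 5.44 FPKM (1.35 ± 0.036) and Ddx21 from 50.2 ± 3.14 to 111 ± 4.0 FPKM (1.13 ± 0.043). Nhp2 fell from 129 ± 3.34 to 79.0 ± 5.74 FPKM (-0.70 ± 0.047). Cytosolic ribosomal protein genes counted 43 higher, 2 lower and 24 not called of 69, with a median of 0.22, but 19 higher and 10 lower when libraries were rescaled to the same sum and 16 and 15 after quantile normalization. Mitochondrial ribosomal protein genes counted 18 higher and 40 lower of 73, or 14 and 49 when libraries were rescaled to the same sum. Eef2, elongation factor 2, rose from 1573 ± 38.8 to 2451 ± 42.6 FPKM (0.64 ± 0.037), a call lost after quantile normalization (adjusted p = 0.0724).

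Collagen, actin and tubulin genes mostly fell, and other matrix genes were divided. Of 16 tested actin and tubulin list genes 13 fell and 1 rose. Of 15 matrix and adhesion genes 5 rose and 5 fell, or 4 and 9 when libraries were rescaled to the same sum, and of 7 proteases and inhibitors 3 rose and 2 fell. Col1a1, the main chain of type I collagen, was at 22.1, 23 and 24.4 FPKM with PBS and 4.77, 4.17 and 4.73 with lactate (-2.12 ± 0.067, adjusted p = 1.40e-10). Col1a2 went from 115 ± 3.41 to 51.1 ± 1.88 FPKM (-1.15 ± 0.035); of 8 tested collagens 6 fell and 2 rose, and Col18a1 rose from 7.76 ± 0.234 to 13.7 ± 0.841 FPKM (0.74 ± 0.054). Of 8 fibroblast markers 3 were tested: the collagens Col1a1 and Col3a1 (-1.02) fell and the receptor gene Pdgfrb rose from 5.08 ± 0.129 to 11.6 ± 1.08 FPKM (1.04 ± 0.054). The 8 markers summed to 29.4 to 31.7 FPKM in PBS and 17.0 to 19.4 in lactate, with Lum and Thy1 at 0 in all 6 libraries; their part in the result was not tested. Mmp14, a membrane matrix protease, fell from 21.3 ± 1.18 to 6.40 ± 0.128 FPKM (-1.59 ± 0.037), Timp2 fell from 90.2 ± 4.92 to 34.4 ± 0.896 FPKM (-1.36 ± 0.038) and Plaur, the urokinase receptor, rose from 43.2 ± 0.206 to 154 ± 6.30 FPKM (1.81 ± 0.035). Actb, beta-actin, fell from 1113 ± 18.0 to 734 ± 20.8 FPKM (-0.60 ± 0.031), and Vim, vimentin, fell from 972 ± 14 to 541 ± 32.4 FPKM (-0.85 ± 0.041). The inhibitors of differentiation Id3 and Id2, targets of BMP signals, fell from 15.1 ± 0.799 to 2.15 ± 0.538 FPKM (-2.37 ± 0.10) and from 22.4 ± 0.973 to 5.14 ± 0.877 FPKM (-1.94 ± 0.13).

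Shifts of FPKM, a length-scaled level and not an amount of RNA, were largest for abundant transcripts. The 10 named genes with the largest rises in mean FPKM (Hspa1b, Hmox1, Hspa5, Fth1, Hsph1, Ptgs2, Hsp90ab1, Dnajb1, Eef2 and Sqstm1) gained 15168 FPKM together, against a net gain of 50464 over all entries, while the summed level of all entries went from a mean of 366202 in PBS to 416666 in lactate. The 10 largest falls (Ldha, Pkm, Mif, S100a11, Tpi1, Mt1, Mt2, Scd2, Cfl1 and Vim) changed by -6932 FPKM together; of those not yet given, Mif, a cytokine, went from 1528 ± 25.6 to 737 ± 16.7 FPKM (-1.05 ± 0.044). The calcium-binding S100a11 went from 1187 ± 15.5 to 436 ± 8.24 FPKM (-1.44 ± 0.042). Crossing from a mean under 1 to a mean over 10 FPKM was rare, in 10 entries, of which Arc, Egr2, Lcn2, Dthd1 and Naaa have a standard symbol. Dthd1 was at 0.610, 0.805 and 0.871 FPKM with PBS and 11.7, 14 and 12 with lactate (2.94 ± 0.082). Naaa, an amidase of lipid amides, was at 0.867, 0.614 and 1.11 FPKM with PBS and 9.62, 11.2 and 10.8 with lactate (2.64 ± 0.097). Pif1, a DNA helicase, was the 1 gene to cross the other way, at 9.32, 10.9 and 10.5 FPKM with PBS and 0.784, 0.696 and 0.775 with lactate (-2.68 ± 0.056, adjusted p = 7.08e-12).

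Other genes with a standard symbol among the 15 largest changes each way belong to no list above. Dedd2, a death-effector protein, was at 1.86, 1.44 and 1.87 FPKM with PBS and 28.8, 24.9 and 28.9 with lactate (3.39 ± 0.088). Among the falls Ankle1, a nuclease, went from 22.9 ± 1.40 to 2.01 ± 0.187 FPKM (-2.99 ± 0.058), Acat3 from 20.3 ± 1.20 to 2.01 ± 0.354 FPKM (-2.83 ± 0.11), Klk10 from 59.2 ± 2.05 to 7.69 ± 1.01 FPKM (-2.80 ± 0.092), Arhgef39 from 14.9 ± 0.692 to 1.37 ± 0.259 FPKM (-2.74 ± 0.098) and Fam83d, a spindle protein, from 17.9 ± 0.704 to 1.96 ± 0.30 FPKM (-2.68 ± 0.067). Among genes with a standard symbol and a mean of at least 1 FPKM, the 15 largest rises ran from 3.35 to 10.4 with adjusted p up to 4.08e-09, and the 15 largest falls from 2.61 to 3.94 in size with adjusted p up to 1.01e-09.

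The response differed from that of sgControl cells in many genes. The difference between the lactate effects (sgHcar1 minus sgControl, the interaction contrast of the same limma fit) was called in 7409 of 12186 genes (60.8%), of which 3845 were positive and 3564 negative, and 523 and 418 of these were at least 2-fold. Of the 9544 genes called in sgHcar1 cells, 3094 were higher and 2831 lower with both guides, while 472 rose in sgHcar1 and fell in sgControl and 501 did the reverse. A difference between guides cannot be told apart from a difference between the lines that carry them. Without lactate the lines also differed in single genes, given here as examples. Egr1 was at 29.6 ± 0.820 FPKM in sgHcar1 PBS libraries and at 0.783 ± 0.144 in sgControl PBS libraries. Nqo1 was at 0.514 ± 0.0628 and 22.5 ± 0.521. Neither gene had overlap, but the share of all genes without overlap between the PBS groups is not given here. The difference between the lines in PBS was not tested.

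Heat shock genes had wide gaps between the guides. Hspa1b in sgControl cells was at 22.9, 21.7 and 23.4 FPKM with PBS and 27.6, 30.9 and 29.6 with lactate, a change of 0.36 ± 0.11. The difference was 10.08 ± 0.15 (adjusted p = 1.05e-11). Hsph1 in sgControl cells was at 35.4, 34.5 and 35.4 FPKM with PBS and 29.9, 29.8 and 29.5 with lactate (-0.23 ± 0.062; difference 6.10 ± 0.087, adjusted p = 1.05e-11). Dnajb1 was at 50.7, 47.9 and 52.8 FPKM with PBS and 40.0, 39.2 and 40.0 with lactate (-0.34 ± 0.092; difference 5.12 ± 0.13). These sgControl changes were small or downward beside the rises in sgHcar1 cells. Of 37 heat shock list genes the difference was called in 29, 27 of them positive, and the sgControl median was -0.055. For Hspa1b the PBS levels differed as well: all sgHcar1 PBS libraries were under 2 FPKM and all sgControl PBS libraries above 20 FPKM.

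Other programs with larger rises in sgHcar1 cells included the immediate early genes, where 20 of 23 differences were called and 17 were positive, with a sgControl median of 0.47. The difference was 4.17 ± 0.23 for Arc, 3.03 ± 0.14 for Fos and 2.37 ± 0.081 for Jun; Arc and Jun changed by -0.81 ± 0.16 and -0.47 ± 0.057 in sgControl cells. For Cyr61 it was 3.23 ± 0.10, and for Areg 2.82 ± 0.17. Lists described above showed the same trait. Positive were 13 of 14 called differences in the p53 and GADD45 list (median 1.49, sgControl 0.52). The NRF2 list had 19 of 25 positive (0.72 and 0.28), and the lysosome and autophagy list 29 of 36 (0.69 and 0.32). The falls of mitosis genes were also larger in sgHcar1 cells, with 54 differences called, 50 of them negative, and a sgControl median of -1.03; for Ccna2 the difference was -1.26 ± 0.055 and for Plk1 -1.12 ± 0.097. All 16 called differences among cholesterol synthesis genes were negative, as for Sqle at -1.12 ± 0.053, with a sgControl median of -0.59.

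ATF4 targets showed the opposite pattern. The difference was called in 40 of 43 genes and was negative in 38, with a median change of 0.88 in sgHcar1 and 1.81 in sgControl cells. Trib3 rose by 4.61 ± 0.079 in sgControl cells, a difference of -3.51 ± 0.11 (adjusted p = 2.73e-09). Chac1, an enzyme that breaks glutathione down, went from 38.2 ± 1.79 to 115 ± 10.2 FPKM (1.57 ± 0.063) in sgHcar1 cells. Its sgControl change was 4.23 ± 0.063, so the difference was -2.66 ± 0.089. Vldlr turned direction, falling with one guide and rising by 2.05 ± 0.041 with the other, a difference of -3.21 ± 0.058. The one-carbon enzyme genes Aldh1l2, Shmt2 and the gene Pck2 had differences of -2.45 ± 0.078, -2.07 ± 0.064 and -2.46 ± 0.041.

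The unfolded protein response had a median change of 1.64 with each guide, but its roles differed. For ER chaperones and folding enzymes the median was 1.97 in sgHcar1 and 1.48 in sgControl cells, with 16 differences called and 15 positive. Creld2 and Dnajb9 had differences of 1.42 ± 0.093 and 1.29 ± 0.064. Hspa5, which rose by 3.27 ± 0.026 in sgControl cells, had the 1 negative difference, -0.15 ± 0.036 (adjusted p = 0.00347). For sensors and transcription factors the medians were 1.60 and 2.44, with 6 differences called and 5 negative, among them Ddit3 at -1.38 ± 0.091 and Atf4 at -1.44 ± 0.042. Ppp1r15a rose by 3.68 ± 0.042. Its difference of 0.088 was not called (adjusted p = 0.224). The rise of Hmox1 was smaller with the control guide, at 4.64 ± 0.083, which left a difference of 1.92 ± 0.12. Ldha fell more in sgControl cells, by 2.44, for a difference of 0.79 ± 0.056. Slc16a3 fell by 2.39, with no difference called (adjusted p = 0.404).

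**Figure D5:**
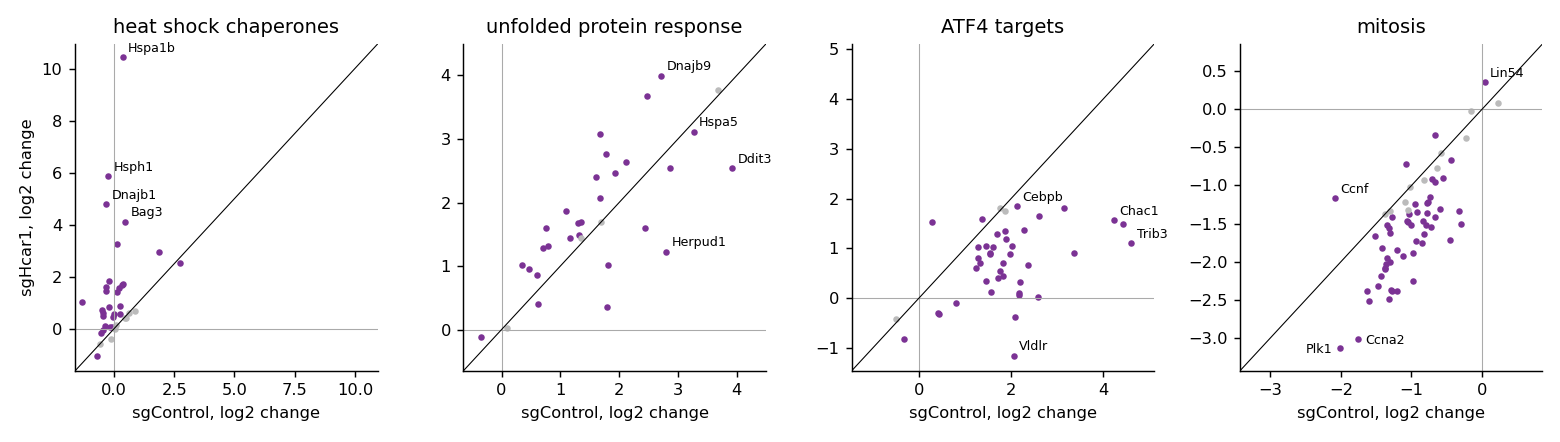
Log2 change, lactate minus PBS, of FPKM + 1 in sgControl cells (horizontal) and sgHcar1 cells (vertical) for the tested members of 4 gene lists; purple points have a called difference between guides, grey points do not, and the diagonal marks equal change. Most ATF4 target points lie below the diagonal, most mitosis points below it, and Hspa1b, Hsph1 and Dnajb1 far above it.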

How the data were processed

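RNA was extracted with Trizol and libraries were made with an Illumina TruSeq kit from 1 µg of total RNA, per the labels' protocols. Reads were processed with HISAT2 2.0.5 and featureCounts 1.5.0-p3 on GRCm38, per the submitters' processing notes; the annotation, the strand setting and the treatment of multi-mapped reads are not given in the sources used here. The authors deposited 1 table of FPKM values for 12 libraries, with no counts, so the depth in reads is unknown; steps among low values gave relative depths of 0.928 to 1 in PBS and 0.800 to 0.851 in lactate. Of the 12186 tested entries 1608 have no symbol and were tested but not named.

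FPKM was tested as log2(FPKM + 1) with limma 3.58.1 (R 4.3.3), intensity trend, 1 mean per group over 4 groups and 12 libraries, with Benjamini-Hochberg adjustment. A pseudocount of 1 understates the fold change of low genes. On simulated data for this comparison (11902 genes), all 50 genes changed 2-fold and 74% of those changed 1.25-fold were recovered, and 6.74% of calls were unchanged genes. The simulation changed 50 genes at each of 1.25, 1.5, 2 and 4-fold, none of them at the lowest levels. In the data 78.3% of genes were called, so these rates need not hold there.

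The members and the 54 gene lists (1323 symbols, 1252 with an entry, 1110 tested) were chosen with earlier results of these data known, and lists are described by counts and medians without a test. Named genes are Hcar1, Hcar2, Ccl2 and Ccl7; the 15 largest rises and falls without overlap and with a mean of at least 1 FPKM; the 10 largest changes of FPKM each way; up to 4 called members of each list role with the largest change and those against its majority; genes crossing from a mean under 1 to over 10 FPKM or back (these 3 groups with a standard symbol only, leaving out Gm, Rik, Mir and Snor names and entries without a symbol); and up to 2 members of each role with the largest difference between guides. Not every gene picked by the rules for list roles is named in the text, so the exceptions given for a list may be incomplete. Promoter windows (32851, for 27025 symbols, of which 7836 tested genes) are RefSeq's for GRCm38.p6. Alternatives covered the pseudocount, filter, scaling, trend, replicate block, array weights, the 6 libraries alone and leaving out each library.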

Additional observations from a re-analysis of the deposited data

Results flagged for a closer look

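The lactate effect differed between sgHcar1 and sgControl cells in 7409 genes by the interaction contrast (limma, Benjamini-Hochberg adjusted p under 0.05). Among the genes named here, 31 had a called difference of at least 4-fold. The differences below are log2 values, sgHcar1 minus sgControl, given with no explanation.

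Positive differences of chaperone genes were 10.08 for Hspa1b, 6.10 for Hsph1, 5.12 for Dnajb1, 3.64 for Bag3, 3.15 for Dnajb4, 2.36 for Cryab, 2.04 for Ahsa2 and 2.02 for Hspe1. Immediate early genes and ERK feedback genes followed: 4.17 for Arc, 3.05 for Fosb, 3.03 for Fos, 2.74 for Phlda1, 2.62 for Egr2, 2.37 for Jun, 2.26 for Dusp1 and 2.16 for Btg2. Secreted factors had 3.23 for Cyr61, 2.82 for Areg and 2.08 for Cxcl1. Redox and other genes had 2.99 for Dedd2, 2.83 for Dthd1, 2.71 for Naaa, 2.39 for Osgin1 and 2.09 for Gclm.

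Negative differences were those of ATF4 targets, -3.51 for Trib3, -3.21 for Vldlr, -2.66 for Chac1, -2.46 for Pck2, -2.45 for Aldh1l2 and -2.07 for Shmt2, and of Txnip at -2.03. Of these, Vldlr and Pck2 fell in sgHcar1 cells and rose in sgControl cells, with changes of 2.05 ± 0.041 and 2.09 ± 0.029, while 7 genes rose in sgHcar1 cells and fell in sgControl cells. Their sgControl changes were -1.32 ± 0.079 for Cryab, -0.81 ± 0.16 for Arc, -0.47 ± 0.057 for Jun, -0.34 ± 0.092 for Dnajb1, -0.23 ± 0.062 for Hsph1, -0.21 ± 0.049 for Ahsa2 and -0.20 ± 0.060 for Hspe1.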

How the results depend on the processing

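Counts of genes at least 2-fold lower rose from 836 to 1306 with a pseudocount of 0.1 in place of 1. With a mean of at least 5 FPKM required, 7981 genes were tested, 2983 were lower and 549 at least 2-fold lower. Leaving out each library in turn gave 4781 to 4834 genes higher, 4471 to 4536 lower, 1191 to 1221 at least 2-fold higher, 817 to 854 at least 2-fold lower and 7064 to 7266 differences between guides. Rescaling to the same sum gave 3887 higher and 5706 lower (862 and 1132 at least 2-fold), and quantile normalization 4613 and 5020; 23 and 11 of the called genes were then called in the opposite direction. Of 242 genes named here, 4 changed sign on rescaling. Of these, Cox4i1 was called lower (-0.079, adjusted p = 0.0478). Dut (-0.049, adjusted p = 0.326), Mcl1 (-0.065, 0.0636) and Pola1 (-0.055, 0.292) were then not called. After quantile normalization 3 changed sign. Cox4i1 was called lower (-0.088, adjusted p = 0.0329), and Dut (-0.0054, 0.923) and Mcl1 (-0.029, 0.411) were not called. The cause was not tested. The replicate numbers did not pair the libraries (correlations of same-numbered deviations -0.037, 0.013 and -0.076 over 7981 genes), and a replicate block gave 4903 higher, 4637 lower, 1209 and 835 at least 2-fold, and 7351 differences. The depth in reads is unknown, which limits what can be said of genes near 1 FPKM.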
